A study of Mus musculus with 8 samples.

Results

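The hedgehog pathway was examined through 9 genes that encode its ligand (Shh), its receptor (Ptch1), its co-receptors (Boc and Gas1), its signal transducer (Smo), the inhibitor Sufu and the transcription factors Gli1, Gli2 and Gli3. The genes were taken by name for their place in the pathway, out of 26180 genes with a curated RefSeq transcript. For each gene, peaks were collected in the promoter (a window reaching 1 kb upstream and 100 bp downstream of any transcription start site), in the rest of the gene body and within 50 kb on either side of it. The libraries were made from wild-type mice, from the total epidermis at postnatal day 0.5, with no treatment and no mutant group. The histone acetyltransferase MOF, which acetylates histone H4 at lysine 16, had been mapped by ChIPseq, and the ciliary transcription factor Rfx2, H3K4me3 and H3K27Ac by Cut&Run. H3K4me3 is found at active and poised promoters, and H3K27Ac at active promoters and enhancers. The series held 8 libraries of 6 antibodies, of which 4 peak lists were analysed here, 1 for each of MOF, Rfx2, H3K4me3 and H3K27Ac. With 1 library per antibody, no value below has a replicate error, and differences between neighbouring values could not be set against any spread.

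Hedgehog signalling starts when a secreted ligand binds Patched, with co-receptors such as Boc and Gas1 presenting it, and thereby releases Smoothened from inhibition. Smoothened then gathers in the primary cilium, where GLI factors leave their partner Sufu and enter the nucleus as activators, whereas without ligand Gli3 above all is cut to a repressor. In skin, Shh is made by the epithelium of the growing hair follicle, and Ptch1 and Gli1 are themselves targets that GLI factors switch on, so they serve as readouts of the pathway.

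The sequences on which the results turn are given first, all from GRCm38.p6 (the assembly of mm10), read on the plus strand. Ptch1, on the minus strand of chromosome 13, has start sites at 63573460 and 63565735. The GLI binding motif searched for here, GACCACCCA (TGGGTGGTC on the other strand), lay next to the first start site. Smo carried the same letters in an upstream H3K27Ac peak. In the first pair of sequences the capitals mark that motif.
Ptch1 first start site, chr13:63573455-63573483: gccctcggcgTGGGTGGTCtgccgcgcca
Smo upstream H3K27Ac peak, chr6:29719041-29719279: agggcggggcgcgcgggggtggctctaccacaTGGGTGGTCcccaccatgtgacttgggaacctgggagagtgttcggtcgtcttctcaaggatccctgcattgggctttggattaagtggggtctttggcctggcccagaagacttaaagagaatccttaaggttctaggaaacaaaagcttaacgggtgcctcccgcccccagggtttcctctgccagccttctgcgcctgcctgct
The next 3 sequences show places where MOF lay at or near Gli3 and Boc, with each CpG, the dinucleotide that builds CpG islands, in capitals. They are the whole promoter MOF peak of Gli3, the stretch downstream of Gli3 that MOF, H3K4me3 and H3K27Ac peaks shared, and the intronic stretch of Boc that MOF and H3K27Ac peaks shared.
Gli3 MOF peak, chr13:15462708-15463002: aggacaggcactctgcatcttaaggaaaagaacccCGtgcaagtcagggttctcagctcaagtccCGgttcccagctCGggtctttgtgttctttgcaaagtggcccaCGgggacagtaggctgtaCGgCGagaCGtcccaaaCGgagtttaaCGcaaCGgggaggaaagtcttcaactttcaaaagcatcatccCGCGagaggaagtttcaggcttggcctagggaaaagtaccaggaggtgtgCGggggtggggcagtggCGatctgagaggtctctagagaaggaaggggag
Gli3 downstream, chr13:15759617-15759741: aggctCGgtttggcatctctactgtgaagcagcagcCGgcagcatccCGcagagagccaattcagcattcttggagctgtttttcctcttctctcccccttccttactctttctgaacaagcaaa
Boc intron, chr16:44506624-44506703: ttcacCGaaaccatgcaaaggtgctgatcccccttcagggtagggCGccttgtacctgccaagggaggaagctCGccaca

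At the promoters, H3K4me3 was present at all 9 genes, H3K27Ac at 7, MOF at 4 and Rfx2 at 0. A peak was counted when it overlapped the window by at least 1 bp. Where its centre had to lie in the window, H3K4me3 and H3K27Ac were at 2 genes each, and MOF was at 2 within 500 bp on either side of the start site and at 0 with the upper 50% of its scores. Over all 26180 genes the shares with a peak at the promoter were 54% for H3K4me3, 44.1% for H3K27Ac, 23.7% for MOF and 1.21% for Rfx2. The exact (Clopper-Pearson) 95% intervals over the 9 genes were 66.4 to 100% for H3K4me3, 40.0 to 97.2% for H3K27Ac, 13.7 to 78.8% for MOF and 0 to 33.6% for Rfx2, and they cover counting error only. For MOF, H3K27Ac and Rfx2 the interval included the share of all genes. All 4 genes with MOF had H3K4me3 at the same promoter, as did all 7 with H3K27Ac, beside 95.8% of all genes with MOF and 97.7% of all with H3K27Ac. Of all genes whose promoter had H3K4me3, 42% had MOF there and 79.8% had H3K27Ac, against 4 and 7 of these 9.

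Most of the highest values at these promoters were low beside those of all genes with a peak there. The fold enrichment that the peak caller gives compares the pile-up at the summit with the local background. Its highest H3K4me3 value at the promoter was below the median of all genes with such a peak, 8.04, at each of the 9 genes, which had a median of 4.03. The widest H3K4me3 peak at the promoter had a median width of 1902 bp, against 1319 bp over all genes, although Shh (1241 bp), Gas1 (1277 bp) and Sufu (1279 bp) were below that value. For H3K27Ac the 7 genes had a median fold enrichment of 5.05, against 6.72, although Boc (8.64) and Smo (7.12) were above that value, and a median width of 1275 bp, against 907 bp, with Sufu (521 bp) and Gli2 (829 bp) below that value. The whole H3K27Ac list, at promoters or not, had a median fold enrichment of 4.91. MOF peaks carried a score whose scale is not stated, so it ranks peaks within the list only. The 4 promoters had a median score of 348, against 656 over all genes with MOF at the promoter, and none of the 4 reached 582, the median of the whole MOF list. Their widths were 295 bp at Gli3, 296 bp at Ptch1, 873 bp at Boc and 2377 bp at Smo, against a median of 1015 bp over all genes.

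**Figure D1:**
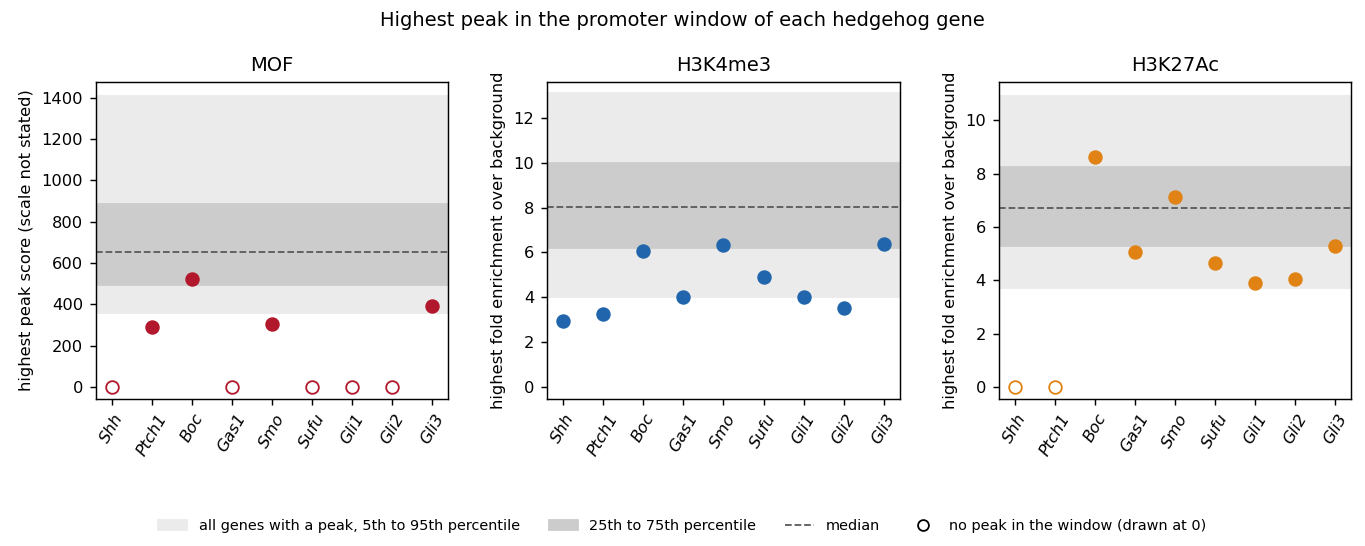
Highest peak in the promoter window of each gene, as MOF score (scale not stated) or as fold enrichment over background for H3K4me3 and H3K27Ac. Grey bands and the dashed line show all genes with a peak, open circles mark genes with no peak in the window, and all 9 H3K4me3 values lie under the median of 8.04.

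Around Shh, the ligand, few peaks were found. Its promoter window was touched by an H3K4me3 peak at chr5:28465857-28467097 with a fold enrichment of 2.92, the lowest of the 9 genes and at the 1.09th percentile of all marked promoters. This peak lay in the gene and ended 4 bp short of the start site at 28467101, and with the start site of the GENCODE annotation it was no longer counted, leaving 8 of 9 genes with H3K4me3. The same peak reached into the promoter window of the neighbouring transcript 9530036O11Rik. A further pair of H3K4me3 peaks in the gene had fold enrichments of 3.07 and 2.46. No H3K27Ac peak was found in Shh or within 50 kb of it, whereas 74.3% of all genes had at least 1 and the other 8 genes had between 4 and 20. The only MOF peak in the region (score 684) lay 40.3 kb downstream, overlapped no other list and was wholly soft-masked as repeat sequence, as were at least 90% of the bases of 5.65% of all MOF peaks.

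Ptch1, the receptor that holds Smoothened inactive, had peaks around both start sites. At the first start site an H3K4me3 peak of 1902 bp (chr13:63571805-63573706, fold enrichment 3.27) covered the site, and the GLI motif in it lay 5 bp upstream of the first transcribed base. An H3K27Ac peak at chr13:63572246-63572984 (fold enrichment 3.39) had its centre 845 bp downstream, within the H3K4me3 peak but outside the promoter window. It was counted when the window was widened to 500 bp or more on either side, which raised the number of genes with H3K27Ac to 8. At the second start site, inside an intron of the longer transcript, a MOF peak had a score of 290, at the 0.985th percentile of promoters with MOF. An H3K4me3 peak with a fold enrichment of 1.80 overlapped it. H3K27Ac did not overlap this MOF peak. The remaining MOF peak of Ptch1 (chr13:63554223-63554940, score 581) was intronic and overlapped neither mark. Between and behind the start sites, H3K27Ac peaks of low enrichment were scattered over introns, 6 in all with values from 2.5 to 3.56.

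Boc and Gas1, the co-receptors that help the ligand bind Patched, differed in MOF. Boc had 6 MOF peaks, the most of the 9 genes, 1 at the promoter and 5 in introns. The promoter peak (chr16:44558695-44559567, score 523) covered the start site at 44558870, and the intronic peaks had scores from 260 to 550. H3K27Ac at this promoter reached a fold enrichment of 8.64, the highest of the 9 genes and at the 79.6th percentile of all marked promoters, with H3K4me3 at 6.05. These promoter peaks also reached into the window of the microRNA gene Mir3081. In the body of Boc, 8 H3K27Ac peaks outside the promoter had values from 2.81 to 5.92, and a pair of them, at 44506493 and 44533116, overlapped MOF. At Gas1, a gene of 1 exon, H3K4me3 (fold enrichment 4.03) and an H3K27Ac peak of 2041 bp (5.05, at the 98.9th percentile of widths) covered the start site. The only MOF peak in its region (score 645) was centred 49.9 kb upstream and overlapped neither mark.

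Smo, the transducer, had all marks but Rfx2 at its promoter. H3K4me3 (fold enrichment 6.34) and H3K27Ac (7.12) covered the start site at 29735497 of chromosome 6, as did a MOF peak 2377 bp wide. That MOF peak was wider than 97.1% of the MOF peaks at promoters, but its score of 305 exceeded only 2.0% of them. The H3K4me3 peak with the highest enrichment near Smo, 11.7, was not at the promoter but 16.2 kb upstream, in intergenic sequence. It coincided with an H3K27Ac peak (6.64) that holds the GLI motif 16416 bp from the start site. The highest MOF score near any of the 9 genes, 5941, belonged to an intronic peak of Smo (chr6:29747825-29749008) with an H3K4me3 peak (9.69) and no H3K27Ac. Repeat masking covered 99.7% of its bases, and 69.0% of its 31-base words were repeated elsewhere in the assembly. The part of repeated sequence in this score was not tested.

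Sufu, which keeps GLI factors in the cytoplasm, had the densest H3K27Ac in its region. Within the gene and 50 kb on either side there were 20 H3K27Ac peaks, or 10.4 per 100 kb, which was at the 98.0th percentile of all genes. Beside the promoter peak, 5 lay in the gene body and 14 in the flanks, some of these inside Actr1a or Trim8. Of the 20, 17 lay outside every promoter window, with the highest, at 6.43, in a Sufu intron 74.2 kb from the start site (46396896 of chromosome 19). The promoter itself had H3K4me3 (4.53) and H3K27Ac (4.66) over the start site but no MOF. A higher H3K4me3 peak (4.91) was centred 1.58 kb upstream, in an intron of Actr1a, and ended 971 bp short of the start site. It touched the edge of the window and so counted as the highest H3K4me3 value of Sufu. Both H3K4me3 peaks also reached into the promoter window of Actr1a, the neighbouring gene. The only MOF peak in the region (score 294) was 48.3 kb upstream, within an H3K4me3 peak (9.07) that touched the promoter window of 2310034G01Rik.

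Among the GLI factors, Gli1 and Gli2 had no MOF at the promoter and Gli3 had it at the edge. Gli1, both an activator and a target of the pathway, had the widest H3K4me3 promoter peak of the 9 genes, 3566 bp (chr10:127338895-127342460), wider than 99.8% of all marked promoters, at a fold enrichment of only 4.01. H3K27Ac covered its start site (3.89), and a further pair of H3K27Ac peaks lay behind it in the gene. The nearest MOF peak (score 857) was 9.21 kb upstream, in a coding exon of another gene and without either mark. Gli2, the main activator, had a similarly wide H3K4me3 peak (3089 bp, 3.53) and H3K27Ac (4.04) at the promoter. Its 17 H3K27Ac peaks included 10 in the body, up to 180 kb into the gene. An element 11.4 kb upstream had the highest H3K4me3 enrichment around any of the 9 genes, 12.5, with H3K27Ac at 7.39 and an overlapping MOF peak with a score of 560. The other MOF peaks of Gli2 overlapped neither mark. They were intronic at 39.9 kb (score 1076), 14.1 kb (294, wholly repeat-masked) and 162 kb (435) into the gene, and 34.1 kb upstream (349).

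Gli3, the main repressor, had a MOF peak (score 392) centred 868 bp upstream of its start site at 15463723 of chromosome 13, which overlapped the upstream end of the H3K27Ac peak (5.28) but not the H3K4me3 peak (6.39). Its promoter window had the highest ratio of observed to expected CpG of the 9 genes, 0.937, against a median of 0.395 over all promoter windows, and the MOF peak printed above holds 14 CpGs in 295 bases. At the other genes with MOF the ratio was 0.428 for Boc, 0.484 for Smo and 0.913 for the second start site of Ptch1, and at those without it ran from 0.21 for Shh to 0.726 for Gli2. These ranges overlapped. On both sides of Gli3, 36.6 kb upstream and 296 kb downstream of the start site, H3K4me3, H3K27Ac and MOF peaks coincided in intergenic sequence, with MOF scores of 423 at both.

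**Figure D2:**
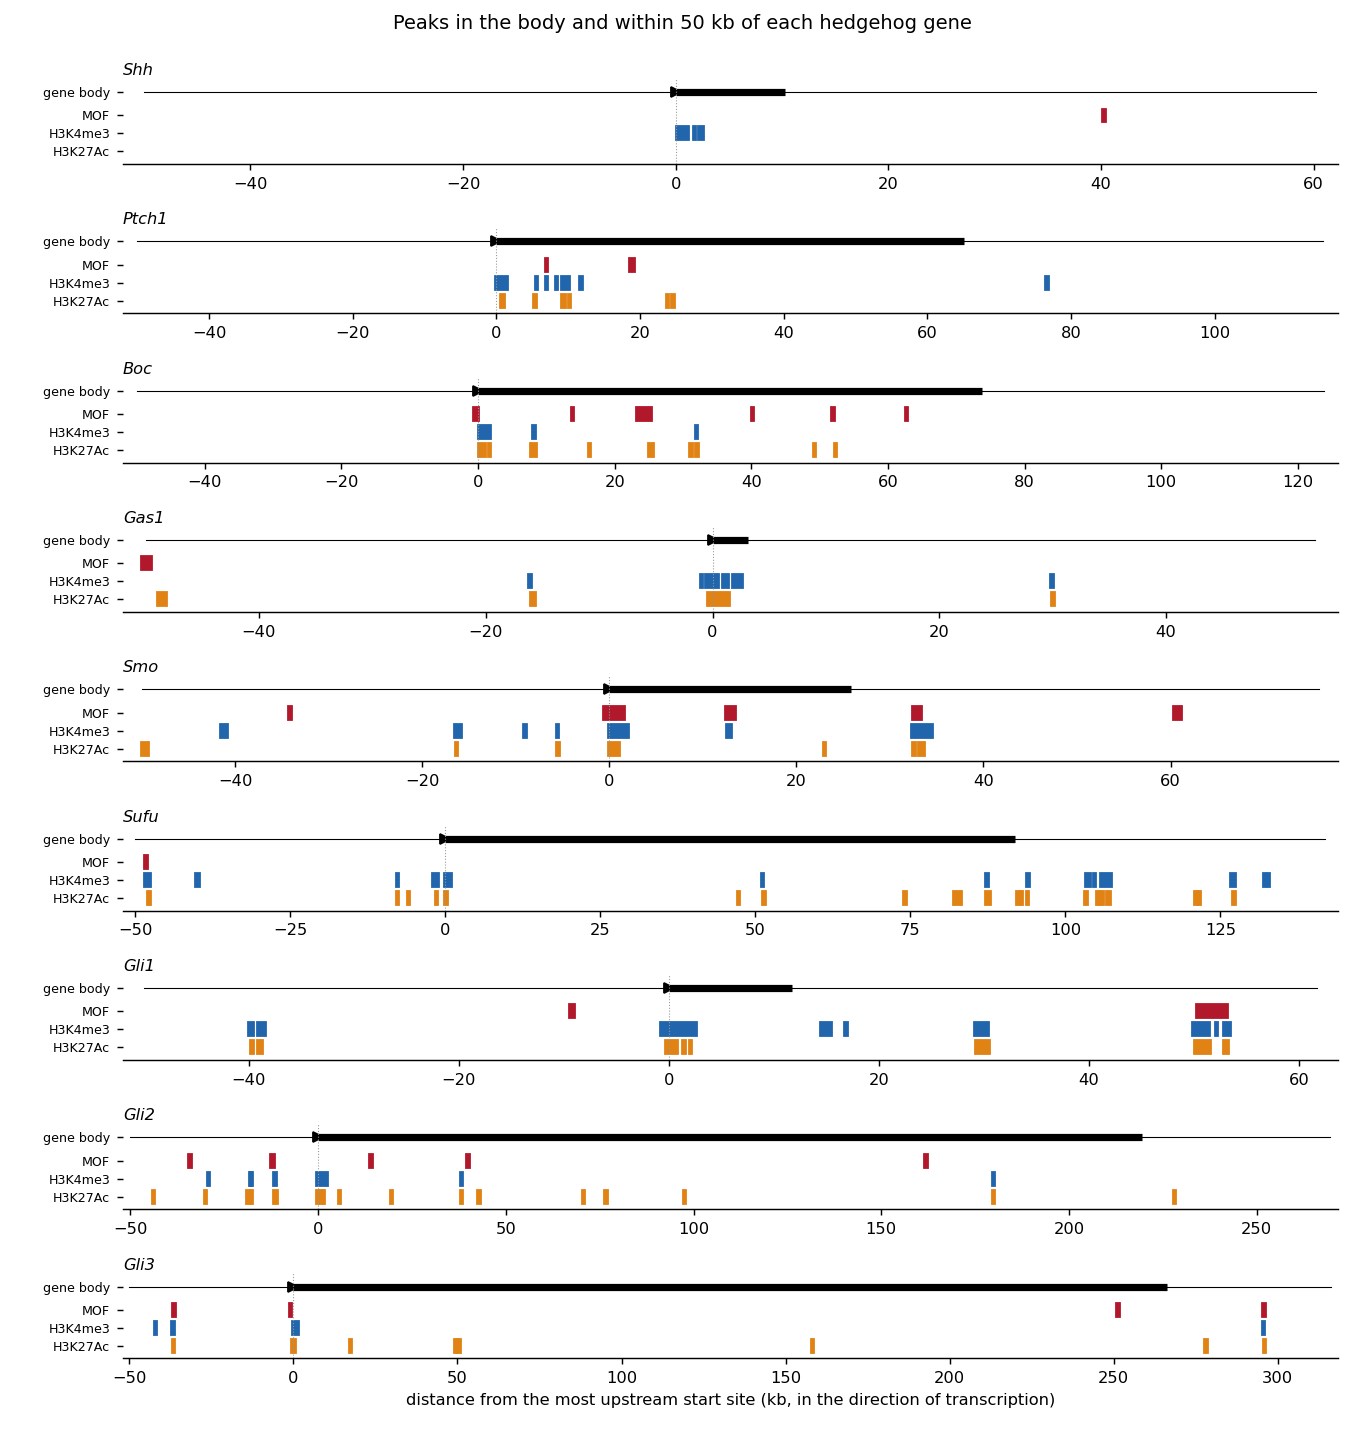
Peaks of MOF, H3K4me3 and H3K27Ac by distance in kb from the most upstream start site of each gene, with the gene body as a thick bar. Narrow peaks are drawn wider than they are so that they can be seen, the scale differs between genes, and no Rfx2 peak falls in any region.

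Over the regions of all 9 genes there were 27 MOF peaks, 61 H3K4me3 peaks, 79 H3K27Ac peaks and 0 Rfx2 peaks. At least 1 peak was found in the body or within 50 kb at 9 genes for MOF and for H3K4me3, at 8 for H3K27Ac and at 0 for Rfx2, beside 72.9%, 79.8%, 74.3% and 4.96% of all genes. Longer genes span longer regions, so numbers were also expressed per 100 kb. The median of the 9 genes was 5.18 for H3K27Ac, against 1.88 over all genes and 0.894 over genes of 100 kb or more. For H3K4me3 it was 4.24, against 1.93 and 0.875, and for MOF 1.21, against 0.981 and 0.635. H3K27Ac in the gene body outside the promoter was found at 7 of the 9 genes, all but Shh and Gas1, whereas 20.5% of all genes and 51.2% of genes of 100 kb or more had it. Of the 9 genes only Gli2 (220 kb) and Gli3 (266 kb) reach that length, so the long genes are not matched to the others.

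The highest H3K27Ac enrichment outside promoters lay at different distances in the 8 genes that had such peaks. At Sufu it was the intronic 6.43 given above, at Ptch1 3.56 in an intron 16.9 kb from the nearest start site, and at Gli1 3.82, 39.7 kb upstream and overlapping H3K4me3. At Gas1 it was 6.75, in intergenic sequence 48.6 kb upstream and without H3K4me3. At Gli2 the element upstream led with 7.39, followed by intronic peaks 76.7 kb (6.57) and 180 kb (6.04) into the gene, the latter with H3K4me3 at 5.42. At Boc it was 5.92 in an intron 32.1 kb from the start site, with H3K4me3 at 4.31. At Smo a peak at 6.80 lay in a coding exon near the end of the gene, and a smaller one 5.48 kb upstream (5.40) coincided with H3K4me3 at 6.21. At Gli3 it was 5.51, in the downstream flank, and the 4 peaks in its introns had values from 3.05 to 4.79.

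**Figure D3:**
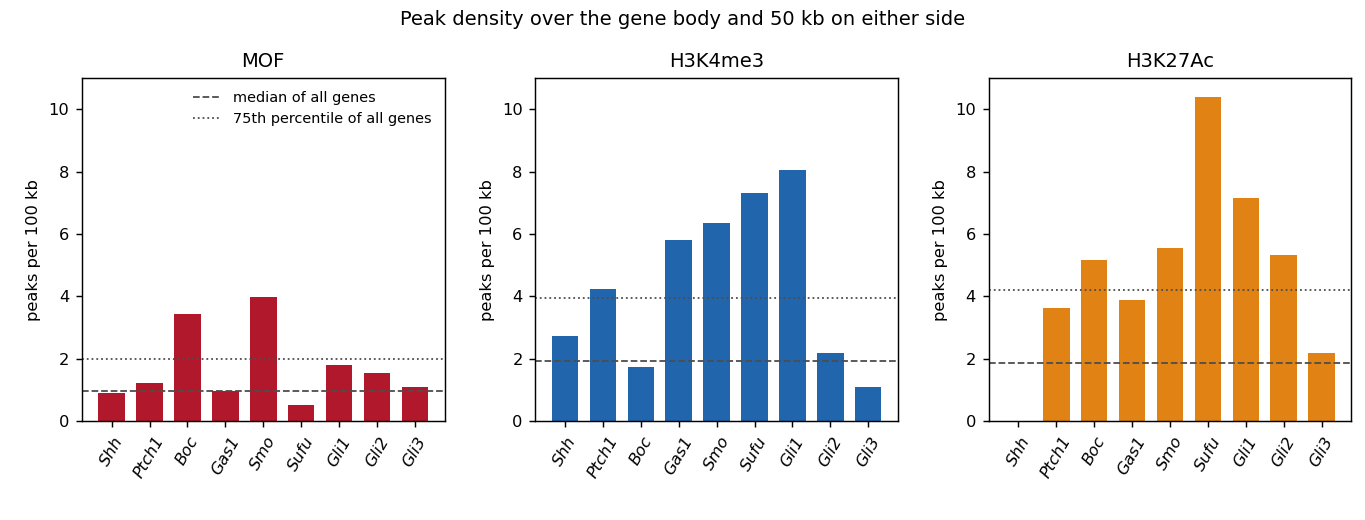
Peaks per 100 kb over the gene body and 50 kb on either side, for each gene and list, with the median (dashed) and the 75th percentile (dotted) of all genes. Sufu has 10.4 H3K27Ac peaks per 100 kb and Shh none, while MOF exceeds its 75th percentile at Boc and Smo.

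Outside every promoter window, 64 H3K27Ac peaks remained, 36 in gene bodies and 28 in flanks. An H3K4me3 peak overlapped 31 of them (48.4%, exact 95% interval 35.8 to 61.3%), against 37.7% of all 19935 H3K27Ac peaks outside promoters. Some of the 31 lay just past the window, under the H3K4me3 peak of the promoter itself, as at Ptch1, Gli1, Gli2 and Boc. A MOF peak overlapped 5 of the 64 (7.81%, 2.59 to 17.3%), against 12% of all H3K27Ac peaks outside promoters. Where the MOF centre had to lie in the H3K27Ac peak, 1 overlap was left of the 5. These 5 were the element upstream of Gli2, both elements flanking Gli3 and the pair in introns of Boc. In the other direction, 21 of the 27 MOF peaks lay outside promoter windows, and 14 of these overlapped no peak of another list, as did 75.4% of all 12325 MOF peaks outside promoters. Peaks of 1 gene share a region and a library and are not independent, so these intervals are too narrow.

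No Rfx2 peak lay near the 9 genes. The nearest of the 337 Rfx2 peaks lay 267 kb from the body of Gli1, 729 kb from that of Shh and between 859 kb and 12.1 Mb from the others. The X-box, the motif that RFX factors recognize, was found in 0 of the 10 promoter windows of these genes (Ptch1 has 2), against 2.68% of all 31603 windows and 21.7% of Rfx2 peaks. With 337 peaks the Rfx2 list is short, and by the study's methods its library had the fewest reads of the 4.

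The exact GLI motif, searched on both strands, was found in 2 of the 10 promoter windows, both of Ptch1, against 0.927% of all windows. Of the 27 MOF peaks around the 9 genes 1 held it, of the 61 H3K4me3 peaks 3, and of the 79 H3K27Ac peaks 1. Over the whole lists the shares were 0.843%, 0.928% and 0.797%. With so few matches and peaks of unequal length, no difference between these shares can be read from them. A match of letters is no evidence of binding by a GLI factor, and no GLI factor was mapped in these libraries.

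The wider pathway was described with a list of 87 genes in 5 roles, the 9 genes included. H3K4me3 was at the promoter of 74 (85.1%, exact 95% interval 75.8 to 91.8%), H3K27Ac at 52 (59.8%, 48.7 to 70.1%), MOF at 26 (29.9%, 20.5 to 40.6%) and Rfx2 at 4 (4.6%, 1.27 to 11.4%). Over all genes these shares were 54%, 44.1%, 23.7% and 1.21%. With the upper 50% of its scores MOF was at 11 of the 87. Of the 74 genes with H3K4me3, MOF was at 25 (33.8%, 23.2 to 45.7%) and H3K27Ac at 49 (66.2%, 54.3 to 76.8%), where 42% and 79.8% of all such genes had them.

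The roles are given beside the share of all genes, 23.7% for MOF and 44.1% for H3K27Ac, and differences between roles were not tested. Of the 30 GLI factors and their regulators, such as the kinases that phosphorylate GLI proteins and the ubiquitin ligases that degrade them, 14 had MOF and 24 had H3K27Ac. Of the 15 genes of Smoothened and its ciliary regulators, 5 had MOF and 12 had H3K27Ac. Among the 11 genes for ligands and their processing and release these numbers were 2 and 2, among the 11 receptors, co-receptors and antagonists 2 and 5, and among the 20 genes induced by the pathway 3 and 9. The 5 highest MOF scores at a promoter all belonged to regulators of GLI proteins, namely Btrc (1013) and Itch (825), which encode a ubiquitin ligase subunit and a ubiquitin ligase, and the casein kinases Csnk1g3 (948), Csnk1g1 (871) and Csnk1a1 (817). Each of these 5 scores exceeded those of the 4 core genes with MOF. Disp2, a homologue of the ligand transporter Disp1, was the only gene of the list with MOF (276) and no H3K4me3 at the promoter.

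Rfx2 was at the promoters of Arl13b (fold enrichment 7.87), a GTPase of the ciliary membrane, and of the casein kinases Csnk1g2 (12.8), Csnk1g1 (9.33) and Csnk1d (5.90). All 4 had H3K4me3 and H3K27Ac, and the 3 kinases had MOF as well. H3K27Ac outside promoters, in the gene or within 50 kb, was most frequent at Sufu (17 peaks) and Gli2 (16), and Csnk1g2 had 10 such peaks and Bcl2 and Jag2 had 9 each.

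**Figure D4:**
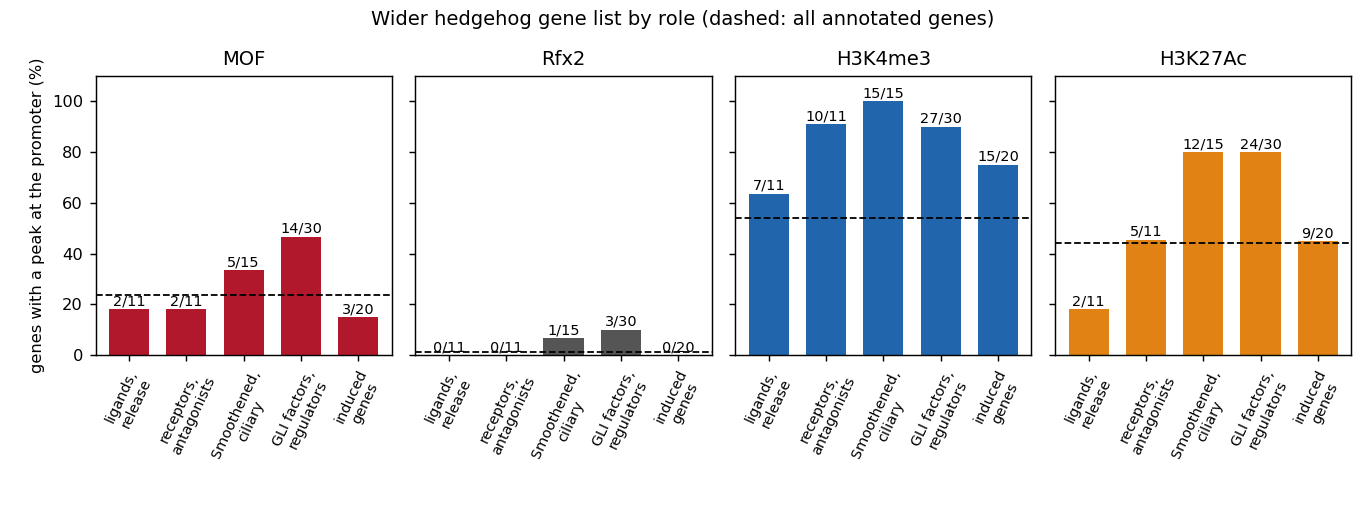
Percentage of the genes of each role with a peak of each list at the promoter, with the number of genes above each bar and the percentage of all annotated genes as a dashed line. MOF is at 14 of 30 GLI factors and regulators and at 2 of 11 ligand genes.

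The tissue label was compared with markers of the cells that skin can hold. Over all genes the shares were 54% for H3K4me3 and 44.1% for H3K27Ac. H3K4me3 and H3K27Ac were at the promoters of 6 and 4 of 7 basal keratinocyte genes and of 7 and 5 of 7 hair follicle genes, but of only 1 and 1 of 5 suprabasal genes, with Krt1, Krt10, Lor and Ivl lacking H3K4me3. The highest H3K4me3 fold enrichments in these lists were 5.12, 5.22 and 4.39. Of 11 genes of dermal fibroblasts and dermal papilla, 6 had H3K4me3 (highest 9.86) and 1, Dcn, had H3K27Ac (3.48). Of the collagen genes, Col1a2 had H3K4me3 without H3K27Ac, and Col1a1 and Col3a1 had neither mark. H3K4me3 was at 4 of 8 melanocyte (highest 9.58), 2 of 8 Langerhans and T cell (12.4), 1 of 5 endothelial (9.27) and 2 of 6 Merkel cell and nerve genes (10), and H3K27Ac at 2, 1, 0 and 0 of them. Promoter marks of genes of cells other than keratinocytes were thus present. With so few genes a list, these counts do not measure how many cells of each type the tissue held. The contribution of any cell type to the peaks above was not tested. In a tissue of mixed cells, a mark held by few cells and a weak mark held by many cannot be told apart, and this applies to every fold enrichment given here.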

How the data were processed

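MOF ChIPseq and Rfx2, H3K4me3 and H3K27Ac Cut&Run of total epidermis gave 1 peak list each. The authors aligned reads with Bowtie2 to mm10 and called peaks with MACS2 on each library by itself (MOF single-end, Cut&Run paired-end); the study's methods give tool versions and read totals, which the lists do not carry and which are not reprinted here, and a control library and excluded regions are not given in the sources used here. The deposited Cut&Run lists hold a fold enrichment (a ratio), a −log10 p-value and a −log10 q-value per peak. The deposited MOF list holds regions with a score and blocks, in the layout of a broad call, and is longer than the authors' own count, which leaves unknown whether it is their final call. The H3K4me3 list is attached to the repeat library, although its name does not say so, so which of the H3K4me3 libraries gave it is uncertain. The lists held 17546 MOF, 337 Rfx2, 27039 H3K4me3 and 30736 H3K27Ac peaks. Libraries of H4K16Ac and H3K4me1, the first H3K27Ac library and the other H3K4me3 library were not used here.

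Start sites were those of curated RefSeq transcripts. Sequences and soft-masking were read from the RefSeq assembly GRCm38.p6 with pysam (0.24.0). Percentiles are shares of genes with a lower value. Overlap calls were tested on simulated data against bedtools. The members and gene lists were chosen with earlier results of these data known. Outside the 9 genes, named are genes of the wider list with Rfx2 at the promoter, the 5 highest MOF scores, the most H3K27Ac peaks (ties included) or MOF without H3K4me3, genes whose promoters lie near a member, and the gene most like each member. Some items that these rules pick are not reported here. The marker genes named were chosen after their values were seen.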

Additional observations from a re-analysis of the deposited data

How the results depend on the processing

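No paired analysis was possible because only 1 list per antibody was analysed, and no replicate could be left out for the same reason. Of 62 values under an alternative, 51 stayed within 1.5 times the value reported and 11 did not. Restricted to the upper 50% of peaks by score (MOF) or q-value, the lists left MOF at 0 of the 9 promoters, 7 MOF, 24 H3K4me3 and 33 H3K27Ac peaks in the regions, and MOF at 11 of the 87 wider genes, and a shorter list can only lower these numbers. With 500 bp on either side of the start site MOF was at 2 of the 9 promoters, Smo and Boc. Requiring the peak centre in the window left H3K4me3 at 2 promoters and H3K27Ac at 2, since most other promoter peaks were centred more than 100 bp downstream of the start site. With 100 kb on either side the MOF peaks numbered 42. Requiring the MOF centre inside the H3K27Ac peak left 1 of the 5 overlaps outside promoters. With 1 mismatch allowed outside the 5 innermost letters, 21 peaks around the 9 genes held the GLI motif instead of 5. These were 3 of 27 MOF, 10 of 61 H3K4me3 and 8 of 79 H3K27Ac peaks, against 10.8%, 11.9% and 9.08% of the whole lists, and 3 of 10 promoter windows, against 12.6%. Rfx2 stayed at 0 of the 9 promoters under all alternatives run. GENCODE start sites, the inner interval of MOF regions and the removal of MOF peaks of repeated words were added after seeing the data; they gave MOF at 4 promoters and 25 or 27 MOF peaks in the regions. The lists carry no read counts, so a missing peak may be a matter of depth.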

Other observations

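Several peaks around the 9 genes belonged to the promoters of their neighbours. Of the 34 H3K4me3 and 36 H3K27Ac peaks in the flanks, and with the promoter peaks left aside, 12 and 8 lay in a promoter window of another gene. Around Gli1 these were the promoters of Arhgap9, Ddit3, Mars1, Mbd6 and R3hdm2, and a MOF peak (score 598) lay at those of Ddit3, a stress-response transcription factor, and Mbd6. Around Sufu they were those of 2310034G01Rik, Actr1a, Mfsd13a and Trim8, and around Smo those of Tspan33 and Ahcyl2. Only Ahcyl2 among the neighbours of Smo had MOF (836), beside H3K27Ac at 7.42. The regions of Gli2, Gli3, Gas1 and Ptch1 held no peak at the promoter of another gene.

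The gene most like each of the 9 was sought over 8 measures (the highest value of each list at the promoter and the number of its peaks in the gene body), as the Euclidean distance between percentile ranks over all 26180 genes, where 0 means the same rank in all. The nearest gene was C1qtnf4 for Shh (distance 0.0183), Sdc4 for Ptch1 (0.0328), Gm20604 for Smo (0.0389), Kirrel for Sufu (0.0163), Has3 for Gli1 (0.00448), Zfp462 for Gli2 (0.0263), Ppp1r14c for Gli3 (0.0388), Creb5 for Boc (0.0689) and Git1 for Gas1 (0.027). None of the 9 was nearest to another of them. At Has3, a hyaluronan synthase, H3K4me3 was 3.86 and H3K27Ac 3.85, close to the 4.01 and 3.89 of Gli1. At Sdc4, a heparan sulfate proteoglycan of the cell surface, MOF scored 366 with H3K4me3 at 4.34 and no H3K27Ac in the promoter window, as at Ptch1.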
